A study of Mus musculus with 20 samples.

Results

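The genes of the proteasome subunits were followed in mouse dorsal root ganglia 1 day after a sciatic nerve lesion. They were chosen by name: every identifier of the count table was given its mouse symbol, and all symbols made of Psma, Psmb, Psmc, Psmd or Psme and a number were taken. This gave 43 genes of 78258 in the table, and all 43 were among the 28564 genes with enough counts to be tested. They fell into 14 constitutive core subunits (Psma1 to Psma7 and Psmb1 to Psmb7), 17 regulatory particle subunits (6 Psmc and 11 Psmd genes), 3 immunoproteasome subunits (Psmb8, Psmb9, Psmb10), 3 assembly chaperones (Psmd5, Psmd9, Psmd10), 4 activators (Psme1 to Psme4) and 2 variants known from other tissues (Psma8, Psmb11).

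The proteasome is the protease that degrades proteins tagged with ubiquitin. Its core is a barrel of alpha and beta rings with the cutting sites inside, and the regulatory particle on its ends recognises, unfolds and feeds in the substrate. Under interferon the catalytic subunits Psmb5, Psmb6 and Psmb7 can be replaced in new particles by Psmb8, Psmb9 and Psmb10, which gives the immunoproteasome known for making peptides for class I antigen presentation. In axons the ubiquitin-proteasome system is known for its part in degeneration and in the local turnover of proteins after injury.

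All 10 mice were male and received tamoxifen, 100 mg/kg once daily on 5 days at 17 weeks of age. The 5 Ahr cKO mice carried Ahr fl/fl and Thy1CRE-ERT2/EYFP, a tamoxifen-activated Cre driven by the neuronal promoter Thy1, so that Ahr, which encodes the aryl hydrocarbon receptor, was floxed in all cells and Cre was limited to cells in which that promoter is active. The 5 control mice were Ahr f/f or f/+, named Wildtype in the sample titles, and received the same tamoxifen. The sciatic nerve was transected 4 weeks after tamoxifen, and the L4-L6 ganglia were taken 1 day later, the lesioned (ipsilateral) and the other (contralateral) side of each mouse as separate libraries. One label field names a spinal cord injury instead, and the contralateral side of a lesioned mouse is not an unlesioned animal.

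Libraries held 76.2 to 118.5 M counts (M, mega), and the 43 genes together took 0.488% to 0.534% of them. Neuronal, satellite glial and Schwann cell markers were present in every library, and so were markers of macrophages, lymphocytes, fibroblasts, blood and muscle. No marker gene on these lists was at 0 in any library. Summed muscle markers ranged from 1.75 to 1476 CPM (counts scaled to library size by TMM, the unit used throughout) between libraries. Ahr had 16.0% less RNA in cKO than in control contralateral ganglia, with no overlap between the 2 groups (exact permutation, two-sided, p = 0.00794, the minimum for 5 against 5 mice). In the edgeR quasi-likelihood fit over all genes that difference was a log2 fold change of -0.25 with a Benjamini-Hochberg adjusted p of 0.103. On the ipsilateral side it was -0.11 (exact permutation p = 0.222). Ganglia are mixed tissue, so fewer cells of a type and less RNA per cell cannot be told apart in any value given here.

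The constitutive subunits were expressed at closely similar levels in all 20 libraries. Per kilobase of merged exon, the 31 constitutive core and regulatory genes ranged from 17.8 CPM per kb (Psmd11, a subunit of the regulatory particle lid) to 154.8 CPM per kb (Psmc5, a base ATPase), with a median of 45.9. The core median was 46.4 and the regulatory median 45.9 CPM per kb. Psmb8 and Psmb9 lay below that range on the same scale, at 5.30 and 1.85 CPM per kb, and Psmb10 lay within it at 22.2. Among the activators, Psme3 stood at 39.3, Psme2 at 20.01, Psme4 at 16.8 and Psme1 at 14.7 CPM per kb. Assembly chaperones were at 13.2 (Psmd10), 11.1 (Psmd5) and 4.10 (Psmd9) CPM per kb. Across the 20 libraries the highest value of a constitutive core or regulatory gene was 1.07 to 1.38 times its lowest, and 27 of the 31 genes stayed under 1.2 times. The other 4 were Psma7, Psmb1, Psmb5 and Psmd11.

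Psma8 and Psmb11 were almost silent. Values per library are listed in the mouse order H62, H63, H65, H96, H97 for control and H61, H64, H95, H99, H100 for cKO, here and in what follows. Psma8, an alpha subunit known from the testis, had 22 to 78 counts per library. In control mice Psma8 was at 0.359, 0.269, 0.636, 0.398 and 0.723 CPM contralaterally and at 0.953, 0.630, 0.382, 0.862 and 0.463 CPM ipsilaterally. In cKO mice Psma8 was at 0.284, 0.634, 0.555, 0.507 and 0.397 CPM contralaterally and at 0.451, 0.364, 0.341, 0.364 and 0.532 CPM ipsilaterally. The ranges overlapped between sides in both genotypes, and neither injury comparison was called. Psmb11, the catalytic subunit of the thymoproteasome known from thymic epithelium, had 0 to 18 counts. In control mice Psmb11 was at 0.127, 0.0735, 0.179, 0.0830 and 0.0748 CPM contralaterally and at 0.171, 0, 0, 0.0699 and 0.0771 CPM ipsilaterally. In cKO mice Psmb11 was at 0.114, 0.101, 0.178, 0.0844 and 0.0745 CPM contralaterally and at 0.107, 0.102, 0.126, 0.0934 and 0.0925 CPM ipsilaterally. Both libraries at 0, where a count of 0 allows up to 3 counts, were ipsilateral control libraries. Sides overlapped in both genotypes, neither injury comparison was called, and at so few counts only large differences could have been detected.

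Promoter windows are shown for the 5 genes on which the results turn: Psmd11, which rose furthest of the called genes in both genotypes, Psme4, next to it in cKO mice, Psmb5 as a constitutive catalytic subunit, and Psmb8 and Psmb9, whose levels varied most between mice apart from the nearly silent Psma8 and Psmb11. They come from the RefSeq annotation of GRCm38.p6, run from 250 bases before to 50 bases after the annotated start, and are written 5′ to 3′ on the strand of the gene. Capitals mark matches, on either strand, to 5 short motifs: the antioxidant response element core TGACNNNGC, the STAT element TTCNNNGAA, an interferon regulatory factor element GAAANNGAA, the CCAAT box CCAAT and the GC box GGGCGG. Matches of different motifs may overlap, as they do in the Psmd9 window. The windows lie at chr11:80428365-80428664, plus strand (Psmd11), chr11:30771525-30771824, plus strand (Psme4), chr14:54617946-54618245, minus strand (Psmb5), chr17:34197945-34198244, plus strand (Psmb8) and chr17:34187281-34187580, minus strand (Psmb9).
Psmd11: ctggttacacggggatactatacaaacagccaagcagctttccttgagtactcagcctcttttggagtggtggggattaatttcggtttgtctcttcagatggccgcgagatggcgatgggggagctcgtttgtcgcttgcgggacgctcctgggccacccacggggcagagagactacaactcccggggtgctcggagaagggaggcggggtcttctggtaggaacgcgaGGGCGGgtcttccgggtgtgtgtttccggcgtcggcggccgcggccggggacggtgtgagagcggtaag
Psme4: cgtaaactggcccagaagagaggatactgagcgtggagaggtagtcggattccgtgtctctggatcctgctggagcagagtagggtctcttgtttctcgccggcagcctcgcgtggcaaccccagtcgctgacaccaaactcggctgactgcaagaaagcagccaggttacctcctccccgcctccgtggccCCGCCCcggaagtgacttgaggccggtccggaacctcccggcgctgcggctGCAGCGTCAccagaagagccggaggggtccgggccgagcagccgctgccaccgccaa
Psmb5: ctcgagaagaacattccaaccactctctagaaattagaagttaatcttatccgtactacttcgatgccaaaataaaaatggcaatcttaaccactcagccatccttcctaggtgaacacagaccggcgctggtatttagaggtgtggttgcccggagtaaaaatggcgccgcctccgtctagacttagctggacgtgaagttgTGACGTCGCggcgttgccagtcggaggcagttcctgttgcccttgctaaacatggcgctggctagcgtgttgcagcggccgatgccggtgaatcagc
Psmb8: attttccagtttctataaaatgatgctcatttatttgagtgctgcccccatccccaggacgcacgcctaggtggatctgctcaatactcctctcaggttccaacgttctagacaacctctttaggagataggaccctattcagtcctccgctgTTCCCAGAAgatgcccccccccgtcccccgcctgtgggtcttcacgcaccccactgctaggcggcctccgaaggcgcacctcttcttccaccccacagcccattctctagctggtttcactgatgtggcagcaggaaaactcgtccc
Psmb9: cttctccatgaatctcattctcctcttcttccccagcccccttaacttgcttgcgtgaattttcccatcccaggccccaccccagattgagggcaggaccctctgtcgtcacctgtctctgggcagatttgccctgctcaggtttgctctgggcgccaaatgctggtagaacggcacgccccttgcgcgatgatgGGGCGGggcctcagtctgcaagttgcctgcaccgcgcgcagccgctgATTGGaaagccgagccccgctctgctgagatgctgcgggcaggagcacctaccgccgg
The capitals are a GC box at -19 from the start in Psmd11, a GC box at -58 and an antioxidant core at -7 in Psme4, an antioxidant core at -47 in Psmb5, a STAT element at -97 in Psmb8, and a GC box at -55 and a CCAAT box at -8 in Psmb9.

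Windows were found for 36 of the 43 genes, 39 windows in all. A gene was counted when any of its windows held the letters, here and over the 27025 genes with a window. GC boxes stood in 22 of these 36 genes (61.1%), against 38.2% of all genes, and in 10 of 14 regulatory, 5 of 11 core and 1 of 3 immunoproteasome genes. CCAAT boxes stood in 14 genes (38.9% against 41.1%). The antioxidant core was found in 6 (16.7% against 14%), among them Psmb5 and Psmb6, and in 0 of 3 immunoproteasome genes. Interferon regulatory factor letters occurred in 6 (16.7% against 9.8%), which were Psmb3, Psmb4, Psmc2, Psmd4, Psmd9 and Psme1 and none of the 3 immunoproteasome genes. STAT letters occurred in 2, Psmb8 and Psmd2 (5.56% against 9.6%). A match describes letters in a window, not a bound site. The Psmb9 window also holds the start of Tap1, the class I peptide transporter: the 2 starts lie 226 bp apart on opposite strands of chromosome 17.

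The first comparison asked what the lesion did in control mice. Of the 17 regulatory subunits 5 rose and none fell (29.4% called), of the 14 core subunits 2 rose (14.3%), and 0 of 3 immunoproteasome subunits were called; the difference between these roles was not tested. In all, 9 of the 43 genes were called by the edgeR quasi-likelihood test at an adjusted p under 0.05, 8 higher (Psma7, Psmb2, Psmc4, Psmd3, Psmd4, Psmd8, Psmd11, Psme4) and 1 lower (Psmd5). That is 20.9% of them, against 29.9% of all tested genes and 45.0% of genes averaging 10 CPM or more. Of all tested genes 13.8% were called higher and 16.0% lower, so the share of regulatory subunits called was close to that of all genes and below that of genes averaging 10 CPM or more. The median log2 fold change was 0.04 over the 43 genes and -0.00 over all tested genes, and no member changed by 2-fold. Leaving out mouse H63 gave 14 calls (32.6%, and 23.7% of all genes), and DESeq2 gave 15 (34.9%, and 30.4%), each with Psmd5 as the lower one. Of the core subunits 12 of 14 and of the regulatory subunits 16 of 17 had log2 fold changes above 0.

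In cKO mice the lesion changed 13 of the 43 genes (30.2%), 9 higher and 4 lower. Over all tested genes 31.3% were called, 16.2% higher and 15.1% lower, and 47.0% of those averaging 10 CPM or more. The higher genes were Psmc1, Psmc2, Psmc4, Psmd2, Psmd3, Psmd8, Psmd11, Psme3 and Psme4, and the lower ones Psma2, Psmb1, Psmd5 and Psmd10. Of the regulatory subunits 7 of 17 were called (41.2%), none of them lower, and 14 of 17 had log2 fold changes above 0 (median 0.06). Core subunits gave 2 of 14, both lower, with 4 of 14 above 0 (median -0.04), and immunoproteasome subunits 0 of 3. With mouse as a block 10 of the 43 genes were called (23.3%, beside 31.6% of all genes), 5 of 17 regulatory (29.4%) and 1 of 14 core subunits. The median log2 fold change of the 43 genes was -0.00, beside -0.03 over all tested genes. Leaving out mouse H100 gave 8 calls (18.6%, and 26.4% of all genes), and limma on log2 FPKM gave 5 higher and 5 lower (23.3%, and 32.4%). Called in both genotypes were 6 genes, Psmc4, Psmd3, Psmd8, Psmd11 and Psme4 higher and Psmd5 lower. These make up 66.7% of the 9 calls in control and 46.2% of the 13 in cKO mice. Over all tested genes the calls shared in the same direction made up 71.4% of those in control and 68.3% of those in cKO mice, so the overlap among the subunit genes is not above that of all genes.

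**Figure D1:**
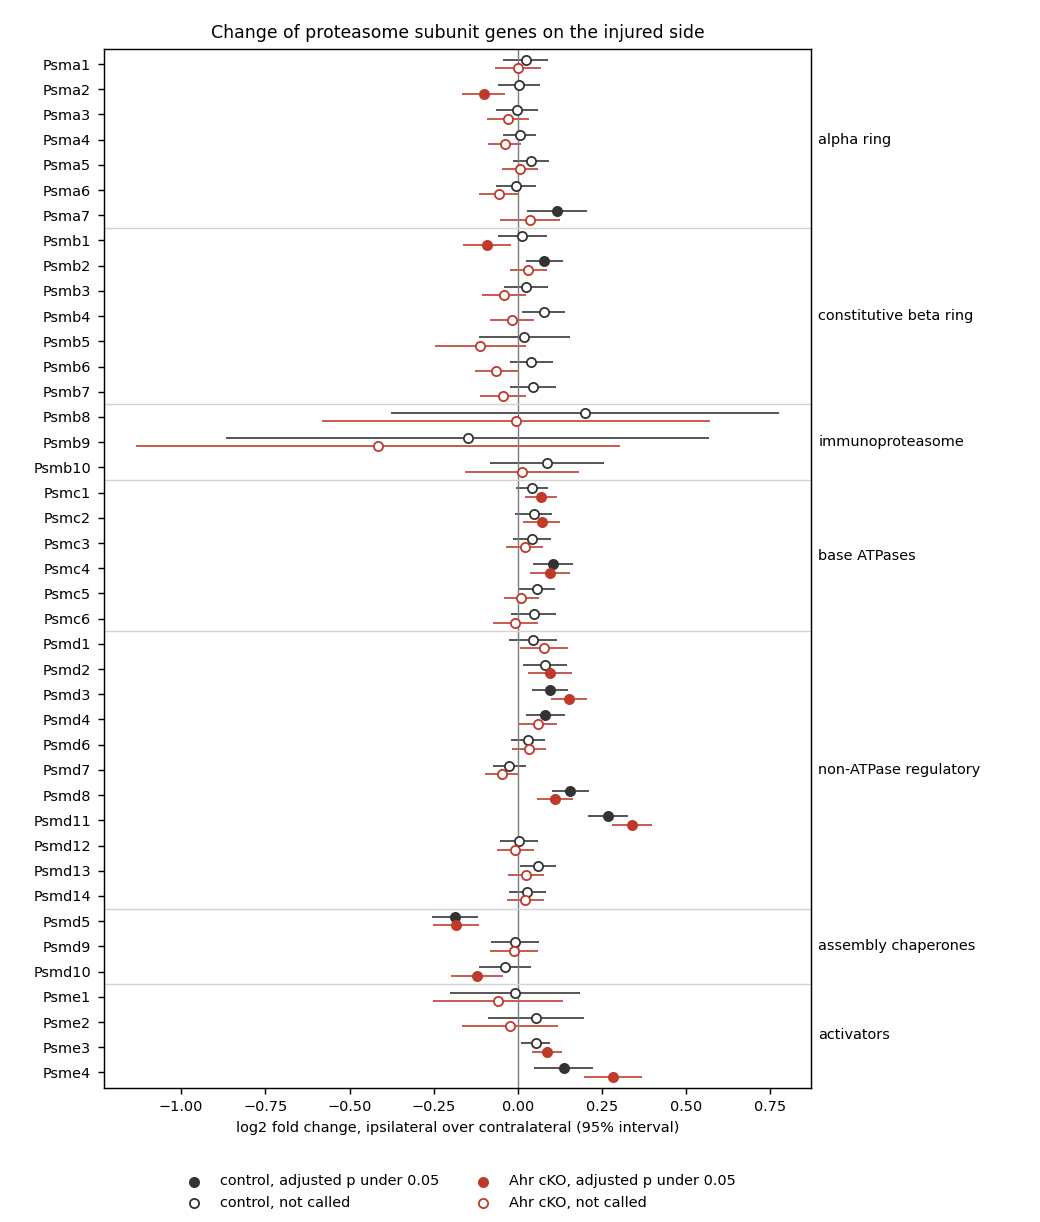
Log2 fold change of ipsilateral over contralateral ganglia for the subunit genes by role, with 95% intervals, in control (dark) and Ahr cKO mice (red), 5 mice each; filled points passed an adjusted p under 0.05, and Psma8 and Psmb11 are left out. Psmd11 in both genotypes and Psme4 in cKO mice lie furthest to the right among filled points, Psmd5 furthest to the left, and Psmb8 and Psmb9 have the widest intervals.

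Psmd11, a lid subunit of the regulatory particle whose abundance is known to affect how many complete particles form, moved most among the genes called in both genotypes. In control mice Psmd11 was at 97.4, 103, 104, 108 and 105 CPM contralaterally and at 123, 125, 128, 124 and 121 CPM ipsilaterally. In cKO mice Psmd11 was at 98.95, 98.6, 96.9, 104 and 100.5 CPM contralaterally and at 126, 130.2, 128, 122 and 124 CPM ipsilaterally. Every ipsilateral library was above every contralateral library in each genotype. The log2 fold change was 0.27 (SE 0.0282, edgeR adjusted p = 2.95e-07) in control and 0.34 (SE 0.0283, adjusted p = 7.00e-09) in cKO mice, a rise of 20.3% and 26.5%.

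Psmd8 and Psmd3, further subunits of the same lid, rose by smaller amounts. Psmd8 went from 118 ± 2.67 to 131 ± 2.56 CPM in control ganglia (SD, n = 5 each). In cKO ganglia Psmd8 went from 120.4 ± 3.79 to 130.03 ± 3.06 CPM, and the sides overlapped in neither genotype. Its log2 fold changes were 0.16 (edgeR adjusted p = 8.01e-05) and 0.11 (adjusted p = 0.00225). Psmd3 rose by 0.10 (edgeR adjusted p = 0.00658) and 0.15 (adjusted p = 8.40e-05) on the log2 scale, in all 10 mice, and its sides overlapped in control mice only. Psmd7, a lid subunit beside the deubiquitinating subunit Psmd14, had the lowest log2 fold change of the 11 Psmd subunits in both genotypes. In control mice Psmd7 was at 155, 159.7, 163, 151 and 158 CPM contralaterally and at 154, 152, 160.0, 155 and 152 CPM ipsilaterally. In cKO mice Psmd7 was at 155, 160.0, 157, 158 and 157 CPM contralaterally and at 152, 147, 152, 154 and 156 CPM ipsilaterally. Its libraries overlapped between sides, and its log2 fold changes of -0.03 (95% interval -0.08 to 0.02) and -0.05 (95% interval -0.10 to 0.00) were not called by edgeR (adjusted p = 0.479 and 0.136).

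Of the remaining Psmd subunits, Psmd4, a ubiquitin receptor, was called in control and not in cKO mice (0.08, edgeR adjusted p = 0.0271; cKO 0.06, adjusted p = 0.106; interaction adjusted p = 0.873). The Psmd4 call was lost with no filter on low counts (adjusted p = 0.0642) and with limma on log2 FPKM (adjusted p up to 0.118). Psmd2, a large scaffold of the base, was called in cKO and not in control mice (0.10, edgeR adjusted p = 0.0219; control 0.08, adjusted p = 0.0563; interaction adjusted p = 0.926), and it was higher on the ipsilateral side in all 10 mice. Psmd1, Psmd6, Psmd12, Psmd13 and Psmd14 were called in neither genotype, with log2 fold changes from -0.01 to 0.08. The Psmd2 call was absent without mouse H61, H64 or H100 (edgeR adjusted p up to 0.0787).

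The 6 base ATPases, which unfold substrates, had log2 fold changes between 0.04 and 0.10 in control mice and between -0.01 and 0.10 in cKO mice. Psmc4 was the highest in both. In control mice Psmc4 was at 117, 126, 126, 122 and 126 CPM contralaterally and at 129.6, 135, 135, 133 and 129.9 CPM ipsilaterally. In cKO mice Psmc4 was at 122, 126, 127, 128 and 118.5 CPM contralaterally and at 137, 127, 134, 134 and 130.2 CPM ipsilaterally. The sides did not overlap in control mice, and in cKO mice the ipsilateral H64 library lay within the contralateral range. Its log2 fold change was 0.10 (SE 0.0288, edgeR adjusted p = 0.00836) in control and 0.10 (SE 0.0287, adjusted p = 0.0142) in cKO mice. Without H61 or H100 the cKO call was lost (edgeR adjusted p up to 0.0922), as it was with limma on log2 FPKM (adjusted p up to 0.0611).

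Psmc3 had the lowest value among the ATPases in control mice and Psmc6 in cKO mice. In control mice Psmc3 was at 231, 249, 246, 234 and 248 CPM contralaterally and at 247, 245, 255, 256 and 239.8 CPM ipsilaterally. In cKO mice Psmc3 was at 238, 243, 238, 240.4 and 241 CPM contralaterally and at 246, 235, 242, 246 and 248 CPM ipsilaterally. Sides overlapped in both genotypes. In control mice Psmc6 was at 148, 160.3, 161, 164 and 157 CPM contralaterally and at 162, 167, 170.4, 157 and 160.1 CPM ipsilaterally. In cKO mice Psmc6 was at 167, 168, 154, 155 and 159.7 CPM contralaterally and at 167, 158, 159, 158 and 157 CPM ipsilaterally. Here too the sides overlapped, and all 4 tests of these 2 genes had an edgeR adjusted p of 0.278 or more. Psmc1 and Psmc2 were called in cKO mice at 0.07 (edgeR adjusted p = 0.0262) and 0.07 (adjusted p = 0.0446), and both rose in all 5 cKO mice. With mouse as a block their adjusted p was 0.0622 and 0.0842, which ends both calls.

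**Figure D2:**
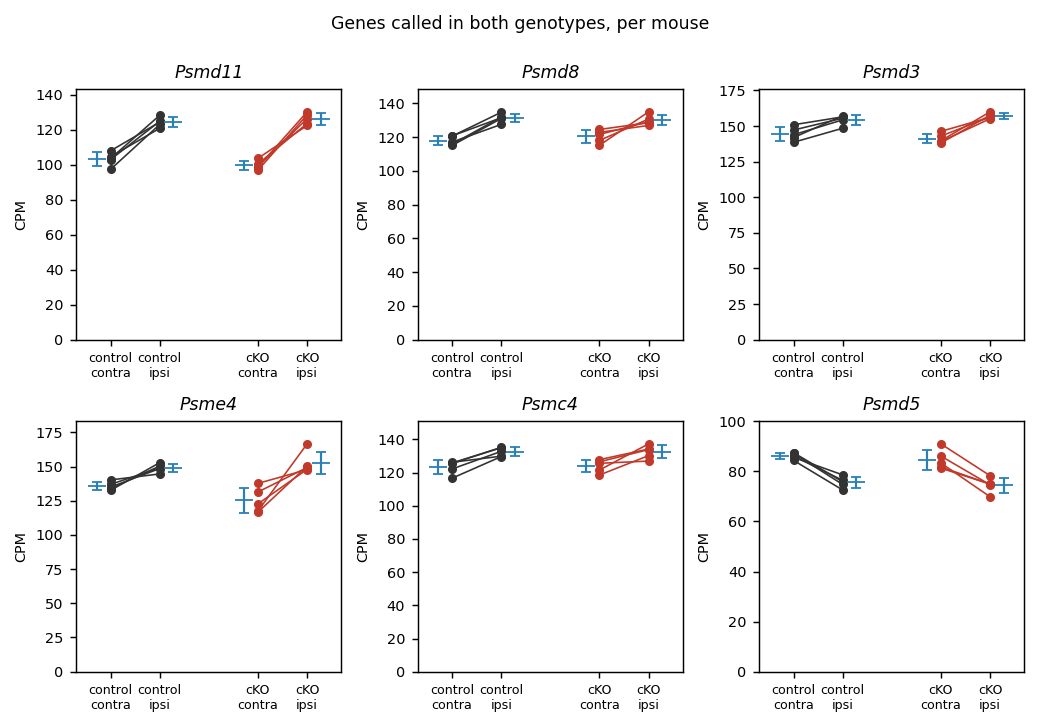
TMM-normalised CPM of the 6 genes called in both genotypes, contralateral (contra) and ipsilateral (ipsi) libraries of each mouse joined by a line, control dark and cKO red; blue marks give mean ± SD of 5 libraries, and axes start at 0. All 10 mice rose for Psmd11, Psmd8, Psmd3, Psme4 and Psmc4 and fell for Psmd5.

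Psmd5, a chaperone of base assembly also known as an inhibitor of particle formation under inflammation, was the gene that fell in both genotypes. In control mice Psmd5 was at 86.1, 84.4, 85.6, 87.2 and 87.5 CPM contralaterally and at 76.4, 72.6, 78.6, 74.8 and 75.9 CPM ipsilaterally. In cKO mice Psmd5 was at 86.1, 83.3, 81.3, 91.0 and 81.8 CPM contralaterally and at 74.7, 69.9, 74.9, 78.3 and 74.9 CPM ipsilaterally. All 10 mice fell, and no ipsilateral library reached the contralateral range. The log2 fold change was -0.19 (edgeR adjusted p = 0.000152) in control and -0.18 (adjusted p = 0.000178) in cKO mice, so that it fell by 12.2% and by 12%. Psmd10, the base chaperone also called gankyrin, was lower ipsilaterally in all 10 mice and was called in cKO mice (-0.12, edgeR adjusted p = 0.0160; control -0.04, adjusted p = 0.5003). The Psmd10 call was lost without H64 or H95 (edgeR adjusted p up to 0.149).

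Psmd9, the third base chaperone, had the smallest difference of the group. In control mice Psmd9 was at 30.0, 30.2, 30.3, 30.5 and 28.6 CPM contralaterally and at 28.1, 28.9, 30.8, 30.9 and 30.2 CPM ipsilaterally. In cKO mice Psmd9 was at 29.9, 30.9, 29.7, 28.5 and 29.3 CPM contralaterally and at 30.8, 28.1, 30.0, 29.1 and 29.2 CPM ipsilaterally. Its sides overlapped in both genotypes, with log2 fold changes of -0.01 (95% interval -0.08 to 0.06) and -0.01 (95% interval -0.08 to 0.06).

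Among the activators, which open the core without the regulatory particle, Psme4 rose most. Psme4 encodes PA200, a nuclear activator. In control mice Psme4 was at 133, 135, 137, 134 and 140.2 CPM contralaterally and at 153, 149, 149, 150.4 and 145 CPM ipsilaterally. In cKO mice Psme4 was at 131, 118, 117, 138 and 123 CPM contralaterally and at 149, 167, 150.3, 148 and 148 CPM ipsilaterally. Sides did not overlap in either genotype, and the cKO contralateral libraries of H64, H95 and H100 were the lowest of all 20. The log2 fold change was 0.14 (SE 0.0414, edgeR adjusted p = 0.0162) in control and 0.28 (SE 0.0414, adjusted p = 1.80e-05) in cKO mice. The control call was lost without H62 (edgeR adjusted p = 0.0782).

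Psme3, the nuclear activator PA28 gamma, varied least between mice of the activators. In control mice Psme3 was at 115, 114, 113, 114 and 113 CPM contralaterally and at 115, 115, 119.1, 121 and 120.2 CPM ipsilaterally. In cKO mice Psme3 was at 111, 114, 115, 113 and 111 CPM contralaterally and at 120.4, 118, 121, 118.8 and 119.4 CPM ipsilaterally. In cKO mice every ipsilateral library was above every contralateral one, and in control mice 4 of 5 were higher ipsilaterally. Its log2 fold change was 0.09 in cKO (SE 0.0211, edgeR adjusted p = 0.00306) and 0.05 in control mice (adjusted p = 0.0663; DESeq2 called it at 0.00633). The cKO call was lost with limma on log2 FPKM (adjusted p up to 0.0838).

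Psme1 and Psme2, the interferon-inducible PA28 alpha and beta, were not called. In control mice Psme1 was at 35.4, 31.1, 30.8, 37.3 and 26.5 CPM contralaterally and at 30.7, 31.3, 29.3, 37.0 and 31.9 CPM ipsilaterally. In cKO mice Psme1 was at 35.7, 36.3, 33.6, 28.8 and 33.5 CPM contralaterally and at 30.4, 31.4, 30.7, 29.6 and 39.0 CPM ipsilaterally. H96 was high on both sides, H100 ipsilaterally only. In control mice Psme2 was at 36.7, 32.9, 34.2, 40.0 and 30.1 CPM contralaterally and at 36.1, 34.1, 35.0, 38.9 and 36.3 CPM ipsilaterally. In cKO mice Psme2 was at 38.1, 37.9, 36.6, 30.4 and 34.5 CPM contralaterally and at 34.6, 33.1, 34.2, 34.1 and 38.4 CPM ipsilaterally. Sides overlapped for both genes in both genotypes. The edgeR log2 fold changes of Psme1 were -0.01 (95% interval -0.20 to 0.18) in control and -0.06 (95% interval -0.25 to 0.13) in cKO mice, and those of Psme2 were 0.05 (95% interval -0.09 to 0.20) and -0.02 (95% interval -0.17 to 0.12). Psme2b, a near copy of Psme2, had 617 to 1306 counts per library, so part of the reads of either may belong to the other.

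Of the 14 core subunits, 2 were called in each genotype. Within the alpha ring, which gates entry, Psma7 had the highest log2 fold change in both genotypes. In control mice Psma7 was at 144, 145, 150.4, 144 and 141 CPM contralaterally and at 152, 155, 168, 156 and 154 CPM ipsilaterally. In cKO mice Psma7 was at 143, 169, 157, 137 and 153 CPM contralaterally and at 161, 152, 159, 151 and 156 CPM ipsilaterally. Control sides did not overlap, cKO sides did. Its log2 fold change was 0.12 in control (edgeR adjusted p = 0.0457) and 0.04 in cKO mice (adjusted p = 0.569). Leaving out any 1 of H62, H63, H65, H96, H97 or H100 ended the control call (edgeR adjusted p up to 0.0919).

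Psma2 was the lowest alpha gene in cKO and Psma6 in control mice. In control mice Psma2 was at 134, 135, 135, 135 and 137 CPM contralaterally and at 132, 136, 143, 135 and 130.3 CPM ipsilaterally. In cKO mice Psma2 was at 142, 151, 141, 134 and 143 CPM contralaterally and at 137, 128, 130.2, 135 and 134 CPM ipsilaterally. The H64 contralateral library stood above all others. In control mice Psma6 was at 109, 118, 118, 114 and 116 CPM contralaterally and at 111, 114, 117, 117 and 112 CPM ipsilaterally. In cKO mice Psma6 was at 115, 122, 119.8, 116 and 116 CPM contralaterally and at 116, 107, 113, 116 and 115 CPM ipsilaterally. Both genes overlapped between sides. Psma2 fell in cKO mice by a log2 fold change of -0.10 (edgeR adjusted p = 0.0127), in 4 of 5 mice, a call that was lost without H64 or H95 (adjusted p up to 0.112), with a value of -0.07 without H64. Its control value was 0.00 (95% interval -0.06 to 0.07). Psma6 was at -0.01 and -0.06, not called, and Psma1, Psma3, Psma4 and Psma5 lay between -0.04 and 0.04 without a call.

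Among the structural beta subunits Psmb2 was the highest in both genotypes. In control mice Psmb2 was at 86.9, 90.0, 89.7, 90.3 and 90.6 CPM contralaterally and at 94.1, 91.2, 96.5, 95.6 and 95.02 CPM ipsilaterally. In cKO mice Psmb2 was at 89.9, 91.3, 89.3, 91.7 and 88.0 CPM contralaterally and at 96.5, 86.7, 91.5, 91.5 and 93.4 CPM ipsilaterally. The control sides did not overlap, and H64 was the lowest cKO library ipsilaterally. Psmb2 rose in control mice by 0.08 (edgeR adjusted p = 0.0297), and with mouse as a block this was not called (adjusted p = 0.0638). In cKO mice its log2 fold change was 0.03 (adjusted p = 0.422).

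Psmb1 was the lowest beta gene in control mice. In control mice Psmb1 was at 185, 189, 186, 180.4 and 188 CPM contralaterally and at 185, 186, 196, 192 and 178 CPM ipsilaterally. In cKO mice Psmb1 was at 189, 206, 194, 190.4 and 197 CPM contralaterally and at 192, 169, 180.1, 185 and 190.3 CPM ipsilaterally. Sides overlapped, and 4 of 5 cKO mice fell. In cKO mice Psmb1 fell by a log2 fold change of -0.09 with an edgeR adjusted p of 0.04999, which became 0.108 with mouse as a block and passed 0.05 without any 1 of 9 of the 10 mice. Without H64 its log2 fold change was -0.04. Psmb3 and Psmb4 were not called, at 0.02 and 0.08 in control and -0.04 and -0.02 in cKO mice.

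Psmb5, Psmb6 and Psmb7 carry the chymotrypsin-like, caspase-like and trypsin-like sites of the constitutive core. In control mice Psmb5 was at 101, 107, 94.1, 102 and 101 CPM contralaterally and at 103, 103, 98.2, 106 and 101 CPM ipsilaterally. In cKO mice Psmb5 was at 105, 121, 97.4, 87.6 and 95.2 CPM contralaterally and at 104, 96.7, 88.9, 88.5 and 89.9 CPM ipsilaterally. The H64 contralateral library was the highest of the 20, and sides overlapped. In control mice Psmb6 was at 143, 151, 147, 142 and 147 CPM contralaterally and at 146, 149, 154, 152 and 148 CPM ipsilaterally. In cKO mice Psmb6 was at 148, 164, 153, 149 and 154 CPM contralaterally and at 153, 138, 146, 148 and 150.4 CPM ipsilaterally. Again H64 was the highest contralaterally and, on the other side, the lowest. In control mice Psmb7 was at 133, 137, 136, 132 and 135 CPM contralaterally and at 137, 138, 146, 141 and 132 CPM ipsilaterally. In cKO mice Psmb7 was at 139, 151, 141, 134 and 139.8 CPM contralaterally and at 144, 129, 135, 137 and 139 CPM ipsilaterally. None of the 6 injury tests of these genes was called by edgeR; log2 fold changes were 0.02, 0.04 and 0.04 in control and -0.11, -0.06 and -0.04 in cKO mice, the last 3 with intervals from -0.25 to 0.02, -0.13 to 0.00 and -0.11 to 0.03.

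The immunoproteasome genes Psmb8, Psmb9 and Psmb10 encode the inducible counterparts of Psmb5, Psmb6 and Psmb7. In control mice Psmb8 was at 19.8, 12.4, 15.2, 28.6 and 11.5 CPM contralaterally and at 21.0, 19.2, 15.8, 27.97 and 16.5 CPM ipsilaterally. In cKO mice Psmb8 was at 27.0, 20.3, 14.5, 10.1 and 13.5 CPM contralaterally and at 16.3, 16.3, 15.2, 15.04 and 22.5 CPM ipsilaterally. H96 was the highest control mouse on both sides, H61 was high contralaterally and not ipsilaterally, and H100 was high ipsilaterally. In control mice Psmb9 was at 7.93, 4.84, 5.25, 14.2 and 4.15 CPM contralaterally and at 6.45, 5.52, 4.87, 9.80 and 6.25 CPM ipsilaterally. In cKO mice Psmb9 was at 12.6, 9.18, 6.17, 4.12 and 5.92 CPM contralaterally and at 5.13, 5.93, 5.14, 4.39 and 7.95 CPM ipsilaterally. The same mice were at the top. In control mice Psmb10 was at 38.3, 34.5, 35.5, 44.1 and 32.7 CPM contralaterally and at 37.4, 37.9, 38.9, 44.6 and 37.8 CPM ipsilaterally. In cKO mice Psmb10 was at 42.5, 39.8, 38.6, 31.1 and 34.9 CPM contralaterally and at 37.5, 36.1, 36.4, 38.1 and 40.4 CPM ipsilaterally. Sides overlapped for all 3 genes in both genotypes.

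None of the 3 was called after injury by edgeR (0 at an unadjusted p under 0.05) or by DESeq2. The edgeR log2 fold change of Psmb8 was 0.20 (95% interval -0.38 to 0.78) in control and -0.00 (95% interval -0.58 to 0.57) in cKO mice, and that of Psmb9 was -0.15 (95% interval -0.87 to 0.57) and -0.41 (95% interval -1.13 to 0.30). For Psmb10 it was 0.09 (95% interval -0.08 to 0.25) and 0.01 (95% interval -0.16 to 0.18). The intervals of Psmb8 and Psmb9 are wide. In each genotype a rise of the size seen there for Psmd11 lies inside the Psmb8 interval, and it lies inside that of Psmb9 in control but just above it in cKO mice.

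**Figure D3:**
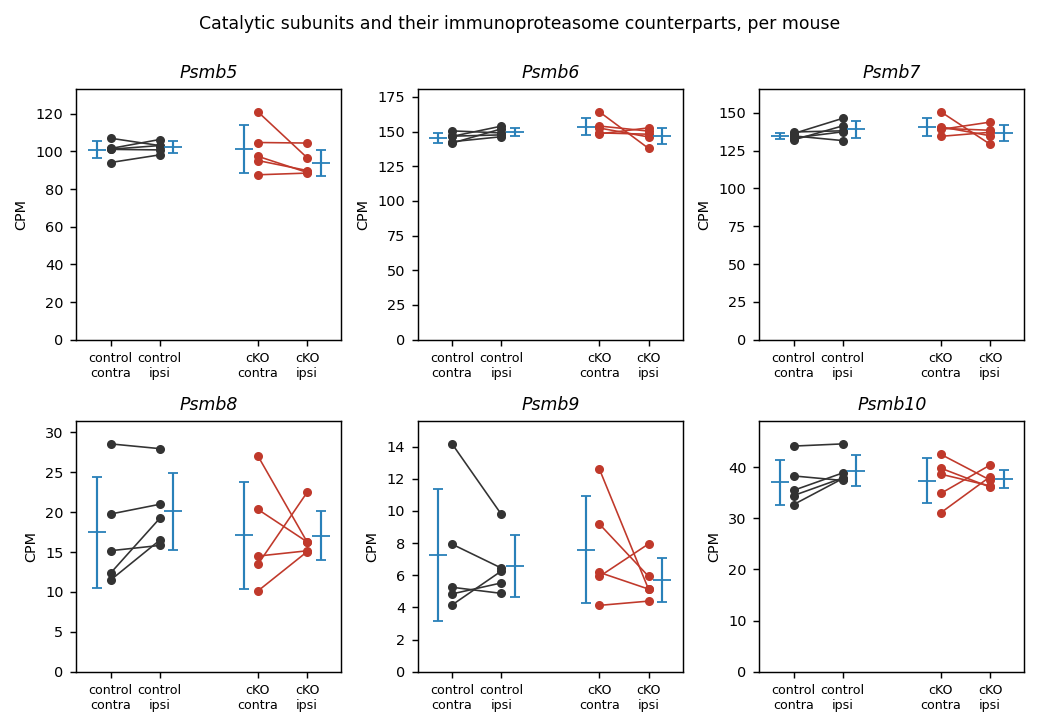
TMM-normalised CPM of the 3 constitutive catalytic subunits (top) and their immunoproteasome counterparts (bottom), contralateral and ipsilateral libraries of each mouse joined by a line, control dark and cKO red; blue marks give mean ± SD of 5 libraries and axes start at 0. Psmb8 and Psmb9 spread widely between mice with lines in both directions, while Psmb6 and Psmb7 form narrow bands.

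Each inducible gene was also set against the constitutive gene whose place its product takes, as a ratio of counts within the library. These ratios are not corrected for gene length, so they compare libraries and do not give relative levels of the paired genes. Per kilobase of merged exon, Psmb8 was at 5.30 and Psmb5 at 110.8 CPM. Psmb9 was at 1.85 and Psmb6 at 79.6, and Psmb10 at 22.2 and Psmb7 at 40.3 CPM per kb. In control contralateral ganglia the ratio of Psmb8 to Psmb5 was 17.3 ± 6.92%, that of Psmb9 to Psmb6 5.03 ± 2.97% and that of Psmb10 to Psmb7 27.5 ± 3.71% (SD, n = 5). Ipsilaterally they were 19.6 ± 4.15%, 4.39 ± 1.25% and 28.3 ± 1.97%. In cKO mice the same ratios were 16.6 ± 5.46%, 4.95 ± 2.22% and 26.5 ± 2.79% contralaterally and 18.3 ± 3.81%, 3.88 ± 0.921% and 27.6 ± 1.17% ipsilaterally. None of 18 two-sided exact permutation tests over mice passed the threshold. The lowest p was that of Psmb8 to Psmb5 over all 10 mice, higher ipsilaterally in 8 of 10 by a mean log2 of 0.20 (SD 0.460; exact p = 0.213, adjusted 0.923). Within 1 genotype 5 pairs cannot give a p below 0.0625.

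The spread between mice differed by role. The SD of log2 CPM between mice, within groups, had a median of 0.0469 over the 14 core and 0.0360 over the 17 regulatory genes, against 0.0722 over the 11407 tested genes averaging 10 CPM or more. It was 0.533 for Psmb9, 0.434 for Psmb8 and 0.137 for Psmb10, and 0.156 and 0.116 for Psme1 and Psme2. The SD of Psmb8 was above that of 98.6% of those 11407 genes, and the SD of Psmb9, which itself averages 6.79 CPM, above that of 99.1%. Psmb5 had the largest SD of the constitutive genes, 0.109, and Psme3 the smallest of all, 0.0236. These are descriptions without a test.

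**Figure D4:**
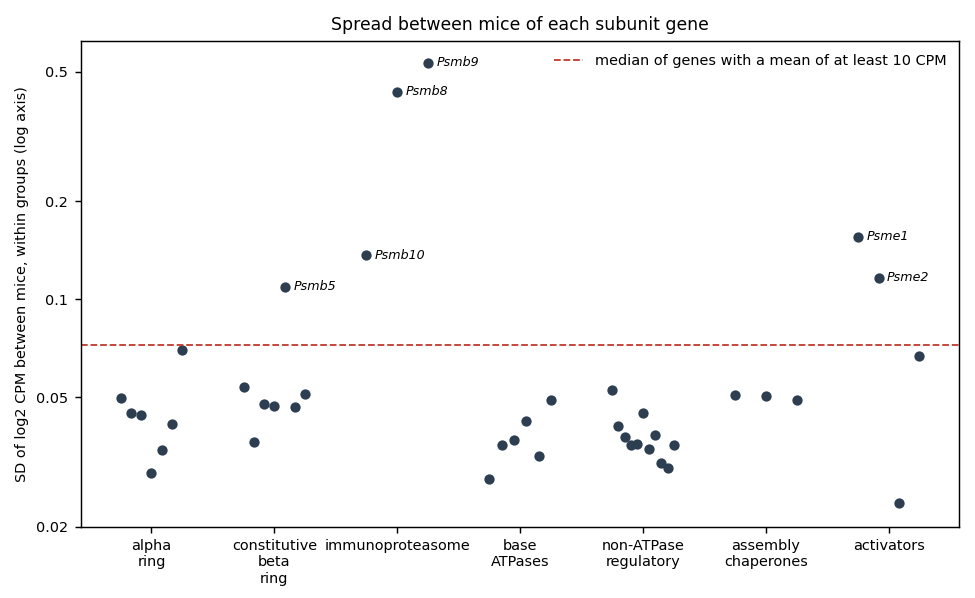
SD of log2 CPM between mice within groups (log axis) by role, 1 point per subunit gene over 20 libraries in 4 groups of 5, with Psma8 and Psmb11 left out; the dashed line is the median of 11407 genes averaging 10 CPM or more (0.0722). Psmb8, Psmb9, Psmb10, Psme1, Psme2 and Psmb5 lie above the line and the other plotted genes below it.

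Several interferon-inducible genes were high in the same libraries. In the contralateral ganglia of H96 (control) and H61 (cKO) Psmb8 was at 28.6 and 27.0 CPM, Tap1 at 27.8 and 22.02 CPM, and the interferon regulatory factor gene Irf1 at 28.8 and 22.2 CPM. The other 8 contralateral libraries had 6.36 to 14.997 CPM of Tap1 and 12.1 to 20.1 CPM of Irf1. Of the other class I genes listed below, Tap2, Tapbp and Nlrc5 were also highest in H96 and H61, and Erap1 in H96 and H100. B2m, H2-K1 and H2-D1 were at 273.5, 172.4 and 354.5 CPM in H96 but at 195.9, 98.9 and 222.8 CPM in H61. In the contralateral library of H64 they were at 276.2, 143.1 and 298.4 CPM. Of the class I genes only Tap1 and Irf1 were correlated with Psmb8. Over the 10 contralateral libraries, both genotypes together, log2 Psmb8 followed log2 Psmb9 (Pearson r 0.98, permutation p = 3e-05; Spearman rho 0.96, permutation p = 8e-05), Psmb10 (r 0.96, rho 0.96), Psme2 (r 0.91, rho 0.95), Psme1 (r 0.85, rho 0.90), Tap1 (r 0.98, rho 0.96) and Irf1 (r 0.97, rho 0.98). Adjusted over 22 relations (11 genes or lists on each side, chosen after the values were seen) these 6 had a permutation p of 0.00449 or less for r. Without H61 and H96, the 2 mice farthest from the median, r was 0.84 to 0.98 for these 6.

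With the constitutive partners the relation was not detectable: r was 0.48 for Psmb5 (rho 0.53, permutation p = 0.158 and 0.124), -0.17 for Psmb6 (rho -0.30, permutation p = 0.658 and 0.406) and 0.09 for Psmb7 (rho 0.01, permutation p = 0.831 and 1.0). Without H61 and H96 the contralateral r was higher for all of these partners, at 0.62 for Psmb5, 0.27 for Psmb6 and 0.50 for Psmb7. Over the 10 ipsilateral libraries Psmb8 followed Psmb9 (r 0.92, rho 0.93, adjusted permutation p = 0.00148 and 0.00107, and r 0.67 without H96 and H100). Without H96 and H100 the ipsilateral r went from 0.80 to 0.35 for Psme1, from 0.82 to 0.38 for Psme2, from 0.89 to 0.53 for Tap1 and from 0.89 to 0.70 for Irf1, while that of Psmb5 went from 0.43 to 0.69. The ipsilateral r with Psmb10 of 0.81 (rho 0.37, permutation p = 0.00919 and 0.298) fell to 0.06 without those 2 mice, so it rests on them. Markers of lymphocytes moved with Psmb8: their summed level ran from 2.73 to 12.7 CPM contralaterally, highest in H96, and r was 0.87 (rho 0.92, adjusted permutation p = 0.00256 and 0.00176). The 13 macrophage markers summed to 104.6 to 271.6 CPM contralaterally, highest in H64, with r 0.52 (rho 0.64, permutation p = 0.123 and 0.0547; r 0.80 without H61 and H96), and to 122.6 to 256.7 CPM ipsilaterally with r 0.79 (rho 0.95, adjusted permutation p = 0.00931 and 0.00044). The part of immune cells in these levels was not tested.

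**Figure D5:**
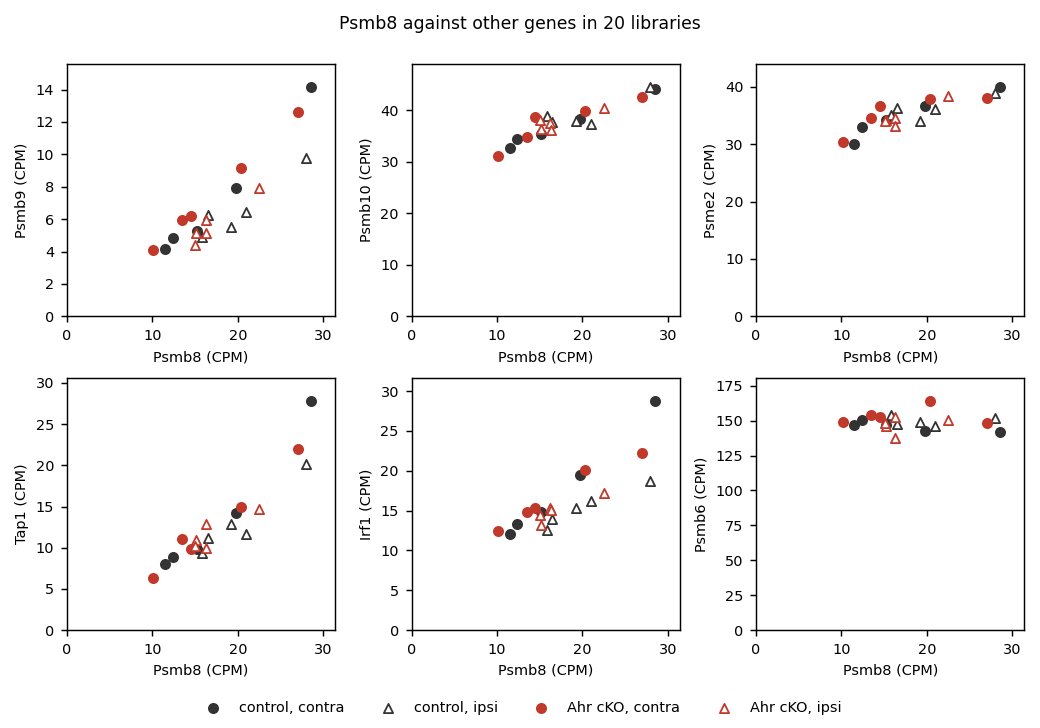
Psmb8 (x axis, CPM) against 6 other genes (y axes, CPM) in the 20 libraries, contralateral as filled circles and ipsilateral as open triangles, control dark and cKO red; all axes start at 0. Psmb9, Psmb10, Psme2, Tap1 and Irf1 rise with Psmb8 among the circles, while Psmb6 lies flat, and at the higher Psmb8 values the triangles of Psmb9 lie below the circles.

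None of the 9 genes listed for class I antigen processing and its inducers (Tap1, Tap2, Tapbp, B2m, H2-K1, H2-D1, Erap1, Nlrc5, Irf1) was called by edgeR or DESeq2 in any of the 5 comparisons (0 of their 45 tests had an unadjusted p under 0.05), and their median log2 fold change after injury was -0.01 in control and -0.07 in cKO mice. Without the mice H61 and H96, an alternative added after the data were seen, the lesion changed 7 members in control (16.3%, and 23.6% of all genes) and 10 in cKO mice (23.3%, and 27.3%), and the log2 fold changes were 0.31 and 0.24 for Psmb8 and 0.06 and -0.11 for Psmb9, neither of them called.

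The second question was whether the Ahr cKO altered the subunit genes. No member was called between genotypes on either side or in the interaction by edgeR or DESeq2, which itself called 3.61% of all genes contralaterally. Of all tested genes edgeR called 0.0735% contralaterally, 0.00700% ipsilaterally and 0% in the interaction (0 of 28564). At an unadjusted p under 0.05 were 6 members contralaterally (14%, beside 17.5% of all tested genes), 1 ipsilaterally (2.33% beside 2.36%) and 5 in the interaction (11.6% beside 9.80%, or 2799 genes), shares near those of all genes in this fit. With mouse as a block the interaction share was 2.33% beside 11.4%. Over the left-out mice it ran from 0% (beside 6.2%, without H64) to 16.3% (beside 11.3%, without H61). Without the H64 contralateral library, an alternative chosen after the data were seen, the contralateral share was 4.65% beside 11.7%. The lowest edgeR adjusted p was 0.154 for Psmd10 contralaterally (log2 fold change 0.11, 95% interval 0.03 to 0.18) and 0.485 for Psme4 in the interaction (0.15, 95% interval 0.03 to 0.27). With mouse H99 left out 2 members were called contralaterally, Psma2 higher and Psme4 lower in cKO, and 11.5% of all 28818 genes tested in that fit.

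Contralaterally all 14 core subunits had log2 fold changes above 0 in cKO over control contralateral ganglia, with a median of 0.05 (0.00 to 0.08), beside 7 of 17 regulatory genes with a median of -0.00 and a median of -0.01 over all tested genes. Ipsilaterally 1 of the 14 core subunits was above 0 (median -0.02), and 6 of the 17 regulatory genes (median -0.01), beside a median of 0.00 over all tested genes. The interaction, which uses the same contralateral libraries, had a median of -0.07 over the 14 core genes and 0.01 over all tested genes. Several cell type marker lists lay on the same sides as the core subunits: 13 of 13 macrophage (median 0.31), 7 of 7 neutrophil (0.79), 6 of 6 fibroblast (0.81), 5 of 5 erythroid (0.47), 5 of 5 endothelial (0.12) and 4 of 4 muscle markers (1.52) were above 0 contralaterally, and none of these in the interaction. The muscle sum was 1476 CPM in the contralateral library of H100 and 4.22 to 53.9 CPM in the other cKO contralateral libraries. Its group median was lower in cKO (13.4 CPM) than in control contralateral ganglia (56.8 CPM), and the interaction uses the same H100 library. Satellite glia markers were above 0 contralaterally in 3 of 5 and Schwann cell markers in 4 of 5, and in the interaction in none. Neuron markers were above 0 in 3 of 12 contralaterally and 6 of 12 in the interaction, and lymphocyte markers in 0 of 8 and 4 of 8. Ipsilaterally the counts above 0 were 7 of 7 neutrophil, 3 of 13 macrophage, 3 of 6 fibroblast, 2 of 5 erythroid, 1 of 5 endothelial, 3 of 12 neuron and 1 of 8 lymphocyte markers, and none of the muscle, satellite glia and Schwann cell markers. None of these markers was called between genotypes, and their part in the core values was not tested. The immunoproteasome genes had values of -0.03, 0.06 and 0.01 contralaterally and -0.24, -0.21 and -0.06 ipsilaterally for Psmb8, Psmb9 and Psmb10. Their interaction intervals were -1.02 to 0.61, -1.28 to 0.75 and -0.31 to 0.16 on the log2 scale.

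Some libraries stood high for most core subunits. The contralateral cKO library of H64 was the highest of its group for 11 of 14 core genes, with a median of 5.90% above the group's median, and it also held the most summed macrophage (271.6 CPM) and fibroblast (2236 CPM) marker RNA of the cKO contralateral group. H61 was the highest cKO ipsilateral library for 14 of 14 core genes (median 3.74% above its group) and had the lowest fibroblast marker sum of that group, 848.3 CPM. H65 was the highest control ipsilateral library for 11 of 14, by 5.45%, with the lowest macrophage sum of its group (122.6 CPM) and the highest muscle sum (558.8 CPM). The part of tissue composition in these values was not tested. Without the H64 contralateral library, an alternative chosen after the data were seen, 9 members were called after injury in control (20.9%, and 30.7% of all genes) and 11 in cKO mice (25.6%, and 29.2%).

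Other genes of the pathway were called about as often as genes overall. Of 27 listed genes of proteasome assembly, ubiquitin supply, shuttling and regulation 25 were matched and tested, and 5 rose and 3 fell in control mice, 7 rose and 2 fell in cKO mice. That is 32.0% and 36.0% of them, beside the 29.9% and 31.3% of all tested genes and the 45.0% and 47.0% of genes averaging 10 CPM or more. Under the mouse block, 5 were called higher and 3 lower in control, and 7 higher and 1 lower in cKO mice. Adrm1, a ubiquitin receptor of the regulatory particle that the naming rule leaves out, rose by 0.19 and 0.20 on the log2 scale (edgeR adjusted p = 0.000120 and 4.68e-05). Nfe2l2, the gene of the stress factor NRF2, rose by 0.34 and 0.31 (edgeR adjusted p = 4.64e-07 and 2.03e-06). Psmf1, an inhibitor of the core, rose by 0.12 and 0.17. Psmg2, a chaperone of alpha ring assembly, fell by 0.15 in control and 0.14 in cKO mice. Nfe2l1, whose protein is known to drive proteasome genes when the proteasome is impaired, was not called at -0.02 and -0.00. Sem1, a small lid subunit, was called lower in cKO mice (-0.11, edgeR adjusted p = 0.0344), a call that the mouse block ended (adjusted p = 0.0530). In control mice it was at 0.01 (edgeR adjusted p = 0.846), and the interaction was not called (adjusted p = 0.498).

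Some markers of the cell types in the ganglion were called on the lesioned side. Of 12 sensory neuron markers 4 fell in control and 2 in cKO mice, of 5 satellite glia markers 3 and 2 rose, and of 13 macrophage markers 1 rose in control and none in cKO mice. The neuron markers called were 33.3% and 16.7% of their list and the satellite glia markers 60% and 40%, beside 29.9% and 31.3% of all tested genes. The other lists had no called member after injury. In control mice 13 of 13 macrophage (median 0.50), 7 of 7 neutrophil (0.64), 6 of 6 fibroblast (0.32), 5 of 5 endothelial (0.38), 4 of 5 erythroid (0.03) and 4 of 4 muscle markers (0.61) had log2 fold changes above 0. In cKO mice it was 9 of 13 macrophage (0.20), 2 of 7 neutrophil (-0.10), 1 of 6 fibroblast (-0.48), 2 of 5 endothelial (-0.07), 0 of 5 erythroid (-0.41) and 0 of 4 muscle markers (-3.48). The muscle value of cKO mice includes the contralateral library of H100, with a muscle sum of 1476 CPM beside 4.22 to 53.9 CPM in the others of its group. Schwann cell markers were above 0 in 3 and 2 of 5 (0.03 and -0.08), and lymphocyte markers in 0 and 1 of 8 (-0.24 and -0.34). The summed neuron markers lay between 8866 and 9991 CPM contralaterally and between 8749 and 9591 CPM ipsilaterally in control mice. In cKO mice these sums lay between 8708 and 9977 and between 8539 and 9229 CPM. Satellite glia markers summed to between 1789 and 1965 CPM contralaterally and between 2018 and 2290 CPM ipsilaterally in control mice. The cKO sums lay between 1763 and 2153 CPM contralaterally and between 1933 and 2138 CPM ipsilaterally. Their part in the changes of the subunit genes was not tested.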

How the data were processed

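Messenger RNA of 20 libraries, 2 ganglion sides of each of 10 mice, was sequenced as paired 150 bp reads after a stranded library kit, per the labels' protocols. The authors deposited whole-number exonic read counts per gene without normalization, and an FPKM table. The submitters' processing notes name HISAT2, Picard and the builds mm10 and mm39 without roles, and the counting program, annotation and strand setting are not given in the sources used here. The deposited FPKM of all 43 genes divide CPM by the whole gene span, introns included (within 0.1%), so they were used only within genes, as alternatives. Symbols came from GENCODE M21 for 51487 of 78258 identifiers, and merged exon lengths for levels per kilobase from the same release. Promoter windows came from RefSeq.

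Groups followed the library names, since 1 title shortens its mouse number. Counts were fitted in edgeR 4.0.16 (R 4.3.3; TMM scaling, robust quasi-likelihood) over all 20 libraries with 1 mean per group, for 28564 genes passing filterByExpr (minimum count 10, total 15). The Benjamini-Hochberg adjustment ran over all tested genes of a comparison, with calls at an adjusted p under 0.05. CPM are TMM-normalised. Ratios and Ahr were tested by exact permutation over mice, and correlations by 100000 random pairings. Each library of a side is 1 mouse, so p-values of the genotype comparisons and correlations measure spread between mice. The main fit takes the 2 sides of a mouse as separate libraries, so its injury and interaction p-values do not use the pairing. The mouse block and the random effect use it, and the exact tests of ratios after injury use the change within each mouse. Replicates of a group gave chi-square values of 5.30 to 58.6 for each degree of freedom (40 pairs), above counting error; counting limits cover counting error only. The 2 sides of a mouse come from the same animal, and their deviations from group means correlated with a median of 0.186 over the 10 mice (-0.0546 to 0.361).

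The subunit genes, their roles, the gene lists and the marker lists were chosen with earlier results of these data known. In each of the 2 pathway lists 1 gene is not reported here and was left out of its counts. Values per library are given for Psmb5 to Psmb10, Psme1 to Psme4, Psma8, Psmb11, any gene called between genotypes or in the interaction (none was), and those with the highest and lowest fold change of each role after injury. Alternatives were the mouse block, RLE scaling, other filters, the compared libraries alone, DESeq2 1.42.0, limma 3.58.1 (voom with mouse as a random effect, and log2 FPKM with a pseudocount of 1 or 0.1) and leaving out each mouse; for ratios, also 0.5 counts added to both genes and the median over mice. Only the edgeR fit without the mouse block was tested on simulated data, in the cKO injury comparison. The planted changes were larger than that of any called member, and no mouse effect was simulated.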

Additional observations from a re-analysis of the deposited data

Results flagged for a closer look

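Each of the 43 genes, and Ahr, was searched in each group of 5 for a library standing far from the rest, meaning a gap to its nearest neighbour above 0.71 of the group's range. This held in 13 of 176 groups, beside 8.8 that chance gives at 1 in 20. Psma1 in H99 was the lowest cKO contralateral library at 96.9 CPM, the others lying at 105 to 107 CPM (gap 0.763 of the range). Psma7 in H65 was the highest control ipsilateral library at 168 CPM, the others lying at 152 to 156 CPM (gap 0.776 of the range). Psmb10 in H96 was the highest control ipsilateral library at 44.6 CPM, the others lying at 37.4 to 38.9 CPM (gap 0.794 of the range). Psmb2 in H62 was the lowest control contralateral library at 86.9 CPM, the others lying at 89.7 to 90.6 CPM (gap 0.765 of the range). Psmb8 in H100 was the highest cKO ipsilateral library at 22.5 CPM, the others lying at 15.04 to 16.3 CPM (gap 0.834 of the range). Psmc2 in H99 was the highest cKO contralateral library at 169 CPM, the others lying at 162 to 163 CPM (gap 0.862 of the range). Psmc6 in H61 was the highest cKO ipsilateral library at 167 CPM, the others lying at 157 to 159 CPM (gap 0.781 of the range). Psmd1 in H99 was the highest cKO contralateral library at 283 CPM, the others lying at 249.8 to 258 CPM (gap 0.754 of the range). Psmd14 in H65 was the highest control ipsilateral library at 141 CPM, the others lying at 129.5 to 132 CPM (gap 0.769 of the range). Psmd2 in H99 was the highest cKO contralateral library at 388 CPM, the others lying at 349 to 358 CPM (gap 0.754 of the range). Psmd9 in H97 was the lowest control contralateral library at 28.6 CPM, the others lying at 30.0 to 30.5 CPM (gap 0.749 of the range). Psme1 in H100 was the highest cKO ipsilateral library at 39.0 CPM, the others lying at 29.6 to 31.4 CPM (gap 0.814 of the range). Psme4 in H64 was the highest cKO ipsilateral library at 167 CPM, the others lying at 148 to 150.3 CPM (gap 0.866 of the range). H99 accounts for 4 of these in the cKO contralateral group, where Psmd1, Psmd2 and Psmc2 were high and Psma1 was low.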

How the results depend on the processing

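No called member reversed its direction under any alternative run. The number of members called after injury in control mice was 9, and it was 14 with a mean CPM of at least 1, 14 with only the libraries compared and 15 with DESeq2; leaving out each mouse gave 7 to 14 (14 without H63). In cKO mice it was 13 (30.2%, and 31.3% of all genes), and 8 with only the libraries compared (19%, and 26.2%). Leaving out each mouse gave 8 to 13 (8 without H100: 18.6%, and 26.4%). Contralaterally, between genotypes, it was 0, beside 0.0735% of all genes, and 0 to 2 over the left-out mice (2 without H99: 4.65%, and 11.5% of all genes). With mouse as a replicate block, the counts were 8 in control (18.6%, and 30% of all genes), 10 in cKO mice (23.3%, and 31.6%) and 0 in the interaction (0%, and 0%). The block ended the calls of Psmb2 (control) and of Psmb1, Psmc1 and Psmc2 (cKO) and no other. Psmd11, Psmd3, Psmd8 and Psmd5 kept their calls in both genotypes under each of these settings. The contralateral Ahr difference of -0.25 was called with DESeq2 (-0.24) and without H99, ranged from -0.30 to -0.20 over the left-out mice, and was -0.0862 on the log2(FPKM + 1) scale, and -0.19 with a pseudocount of 0.1. Depth limited Psma8 (22 to 78 counts a library) and Psmb11 (0 to 18). Limma on log2 FPKM ended the calls of Psma7, Psmb2 and Psmd4 (control) and of Psmc1, Psmc2, Psmc4 and Psme3 (cKO), and no filter on low counts those of Psmb2 and Psmd4 (control) and of Psma2, Psmb1, Psmc2 and Psmd10 (cKO). Fitting only the libraries compared ended those of Psma2, Psmb1, Psmc1, Psmc2 and Psmd10 (cKO). RLE scaling and DESeq2 each ended that of Psmb1 (cKO). The control call of Psmb2 was also lost without H62 or H96 (edgeR adjusted p up to 0.102).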

Other observations

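The balance of Psmb9 and Psmb8, both immunoproteasome subunits, differed between the sides in a pattern noticed after the values were seen. The count ratio of Psmb9 to Psmb8 was 40.1%, 39.1%, 34.6%, 49.6% and 36.1% contralaterally and 30.7%, 28.7%, 30.8%, 35.0% and 37.9% ipsilaterally in control mice H62, H63, H65, H96 and H97. In cKO mice H61, H64, H95, H99 and H100 it was 46.6%, 45.1%, 42.6%, 40.7% and 44.0% contralaterally and 31.5%, 36.4%, 33.9%, 29.2% and 35.3% ipsilaterally. It was lower on the lesioned side in 9 of 10 mice, H97 being the exception, by a mean log2 difference of -0.34 (SD 0.185; two-sided exact permutation p = 0.00391 over 10 mice, the smallest possible being 0.00195). The ratio was chosen because the difference was seen, so this p does not stand as independent evidence.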
